A study of Homo sapiens with 6 samples.

Results

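The 10 genes described here encode the classical cadherins CDH1 (E-cadherin), CDH2 (N-cadherin) and CDH3 (P-cadherin), the epithelial adhesion molecule EPCAM, the intermediate filament vimentin (VIM), and the transcription factors SNAI1, SNAI2, ZEB1, ZEB2 and TWIST1. They were taken by symbol from a table of raw counts with 60564 listed genes, each symbol matched a single row, and all 10 passed the low-count filter that left 18786 genes for testing. RNA was sequenced from CAL27, an established cell line of a human squamous cell carcinoma of the tongue, in 2 groups of 3 libraries. In one group, named here OE (overexpression), the lentiviral insert was CNTNAP2-203, one of the transcripts of CNTNAP2, a gene best known for a neuronal adhesion protein. The other, with the genotype label WT, carried a control vector, and its sample descriptions name EGFP. Infected cells of both groups were kept in puromycin at 5 μg/ml over 2 weeks. The sources used here give neither the promoter of the insert nor whether single clones were grown out. They also do not say if a group's libraries were separate cultures, so p-values measure the spread between libraries, which may be technical.

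Classical cadherins bind the same kind of cadherin on a neighbouring cell and are tied to actin through catenins. In the epithelial to mesenchymal transition (EMT), epithelial cells lose E-cadherin and gain N-cadherin, a change known as the cadherin switch, together with vimentin. SNAI1, SNAI2, ZEB1 and ZEB2 are zinc finger proteins that repress the E-cadherin gene through E-box sequences, and TWIST1 is a basic helix-loop-helix factor that acts in the same programme. In epithelial cells, miRNAs of the miR-200 family and miR-205 repress ZEB1 and ZEB2.

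Deposited counts summed to between 36843190 and 42412703 per library, with the lowest total in OE replicate 3. That library also lay farthest from the other libraries of its group (mean distance 0.516 on the log2 scale, against 0.383 to 0.453 for the other 5). CNTNAP2 averaged 0.0569 ± 0.0501 CPM (counts per 1000000 counts of the library, scaled by TMM; SD, n = 3) in controls and 3498 ± 248 CPM (SD, n = 3) in OE. All 14 keratinocyte and squamous markers listed (such as KRT5, KRT14 and TP63) were at 10 CPM or more in every library, summing to 16365 to 18560 CPM in controls and 16353 to 19364 CPM in OE. An adjusted p of 0.05 was passed by 262 genes (1.39%), of which 150 were higher and 112 lower in OE (edgeR's quasi-likelihood test, Benjamini-Hochberg adjustment over all 18786 genes).

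The miRNAs that repress ZEB1 and ZEB2 are shown because they define which sites to look for in the members' transcripts. Mature miRNAs were not measured here. The sequences are from RefSeq (GRCh38.p14), with the seed, bases 2 to 8, in capitals. The first 3 share one seed, the next 2 share a seed that differs from it by a single base, and miR-205 has its own.
hsa-miR-200b-3p (chr1:1167160-1167181, +): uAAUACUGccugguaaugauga
hsa-miR-200c-3p (chr12:6963742-6963764, +): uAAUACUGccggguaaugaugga
hsa-miR-429 (chr1:1169055-1169076, +): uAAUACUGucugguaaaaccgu
hsa-miR-200a-3p (chr1:1167916-1167937, +): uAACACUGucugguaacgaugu
hsa-miR-141-3p (chr12:6964155-6964176, +): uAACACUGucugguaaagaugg
hsa-miR-205-5p (chr1:209432166-209432187, +): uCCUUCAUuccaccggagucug

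The reverse complements of these seeds are CAGTATT for the first group, CAGTGTT for the second and ATGAAGG for miR-205. They were counted in the longest annotated 3′ UTR of each of 19146 genes (GENCODE 29, sense strand). ZEB1 held 6 copies of CAGTATT, 3 of CAGTGTT and 1 of ATGAAGG in 2549 bases. ZEB2 held 5 of CAGTATT and 4 of CAGTGTT in 5370 bases. SNAI2 held 1 CAGTATT and CDH3 1 ATGAAGG, and the other 6 members held none of the 3. Of all genes, 16.0% had at least 1 CAGTATT, 18.3% at least 1 CAGTGTT and 11.7% at least 1 ATGAAGG, and 7 genes (0.0366%) had 5 or more CAGTATT, ZEB1 and ZEB2 among them. The CAGTATT match nearest the stop codon is shown in capitals for both, with 7 bases on each side (GRCh38).
ZEB1 3′ UTR site (chr10:31527626-31527646, +): atcttatCAGTATTatcactc
ZEB2 3′ UTR site (chr2:144389046-144389066, -): catacatCAGTATTtttatta
A match is a string of letters and not a measured binding site.

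Among the 10 genes, CDH2 was the only one past the threshold. It rose 2.27-fold from a low level, while CDH1 did not differ detectably. Per length, CDH1 was at 9.80 to 15.6 times the CDH2 level in OE, against 24.8 to 32.5 times in controls. So 1 of 10 members was called, against 1.39% of all tested genes: 1 higher, against 0.798%, and 0 lower, against 0.596% (edgeR's quasi-likelihood test). At an unadjusted p under 0.05 the count was 4 of 10, against 17.2% of all tested genes, with CDH3 as the lower one. DESeq2 and limma-voom each called 1 member higher (CDH2) and 0 lower, DESeq2 with 7 members given an adjusted p. Over all genes to which they gave an adjusted p, they called 7.19% and 1.24% in either direction. In 4 of the 10 the OE libraries did not overlap the controls (CDH2, EPCAM and TWIST1 higher, CDH3 lower), against 26.5% of all tested genes. The fold change was positive for 9 of 10, against 49.6%, and its median was 0.29 on the log2 scale, against -0.004 for all tested genes.

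**Figure D1:**
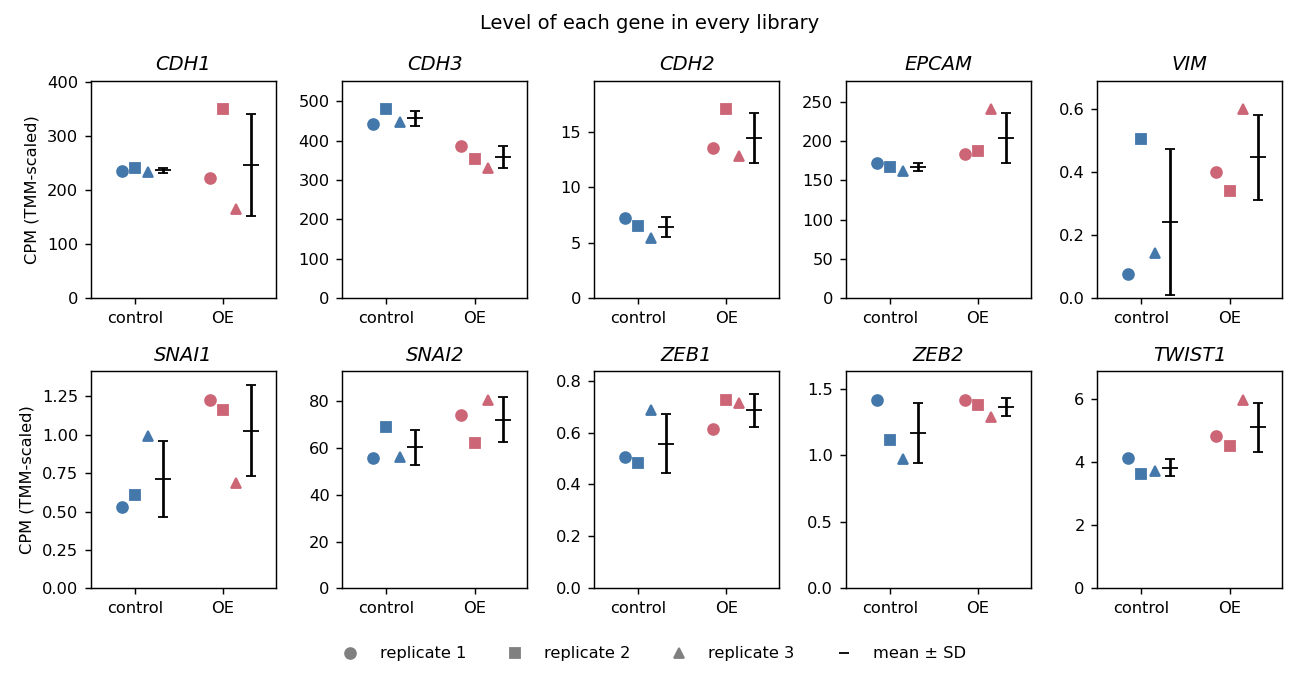
CPM (y axis, each panel from 0 on its own scale) of the 10 genes in the 3 control and 3 OE libraries (x axis), with marker shapes for replicates and bars for the mean ± SD. CDH2 is at 5.44 to 7.21 CPM in controls and 12.8 to 17.0 CPM in OE, while CDH1 spreads from 165 to 349 CPM in OE and from 232 to 241 CPM in controls.

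**Figure D2:**
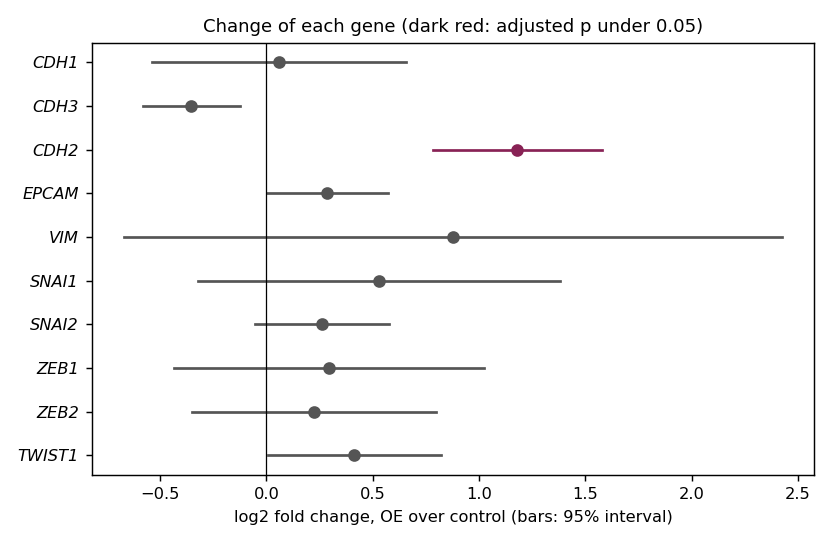
Log2 fold change of OE over control for each gene (x axis) with its 95% interval (bar); the gene past an adjusted p of 0.05 is dark red. CDH2 lies at 1.18, CDH3 at -0.35, and the intervals of VIM and SNAI1 are the widest.

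CDH2 (N-cadherin; chr18:27950966-28177446, minus strand, GRCh38) carries adhesion in neural, heart and mesenchymal cells. It had 286, 257 and 230 counts in control replicates 1 to 3 and 575, 704 and 448 in OE replicates 1 to 3. Scaled to library size, this was 7.21, 6.51 and 5.44 CPM in controls and 13.6, 17.0 and 12.8 CPM in OE. Every OE library was above every control. The means were 6.39 ± 0.889 and 14.5 ± 2.26 CPM (SD, n = 3 each), a 2.27-fold rise (95% interval 1.72 to 2.99, log2 fold change 1.18, SE 0.17, adjusted p = 0.0271 by edgeR's quasi-likelihood test), which ranked 94 of 18786 by p. In bulk RNA, more cells with CDH2 and more CDH2 RNA per cell cannot be told apart. The rise was called by DESeq2 (adjusted p = 1.61e-06) and limma-voom (adjusted p = 0.0301), but not by limma-trend on the deposited log2 values, with a log2 difference of 0.71 (adjusted p = 0.0574). The call was lost without any 1 of the 3 controls and without OE replicate 1 or 2. Calls over all genes also dropped in these fits, to between 13 and 79, against 262 with all libraries. In edgeR's test the adjusted p was 0.0892, 0.142 and 0.130 without control replicate 1, 2 or 3, and 0.0874 and 0.0678 without OE replicate 1 or 2. It was 0.0192 without OE replicate 3, and the log2 fold change stayed between 1.05 and 1.28 in these fits.

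A RefSeq promoter window of CDH2 (250 bases before to 50 after the start, GRCh38.p14) is shown because it belongs to the member that rose.
CDH2 promoter (chr18:28177081-28177380, -): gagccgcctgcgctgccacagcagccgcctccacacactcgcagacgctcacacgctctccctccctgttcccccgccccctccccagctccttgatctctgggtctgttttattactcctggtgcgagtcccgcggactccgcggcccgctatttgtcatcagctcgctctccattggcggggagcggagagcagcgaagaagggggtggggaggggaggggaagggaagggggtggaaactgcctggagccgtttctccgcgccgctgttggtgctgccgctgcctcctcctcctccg
It holds no CACCTG on either strand (read as CAGGTG on the other), the E-box bound by SNAI and ZEB factors, and no CANNTG of any kind, the wider motif that includes it. Of 35116 windows of 300 bases, 20.6% held CACCTG on either strand and 68.7% held CANNTG. The second CDH2 window, the one for VIM and the one for ZEB2 held no CACCTG on either strand. Of 7 windows for ZEB1, one held 3 and another 1. Promoter windows of the other members are not used here.

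CDH1 (E-cadherin; chr16:68737225-68835548, plus strand) is the main cadherin of epithelial junctions. Its levels were 235, 241 and 232 CPM in control replicates 1 to 3 and 223, 349 and 165 CPM in OE replicates 1 to 3. OE replicate 2 was above all controls and OE replicates 1 and 3 were below all of them. The means were 236 ± 4.36 CPM in controls and 246 ± 94.1 CPM in OE (SD, n = 3 each; fold 1.04, 95% interval 0.688 to 1.58, adjusted p = 0.928). The interval holds both a fall to 0.688-fold and a 1.58-fold rise, so a moderate change of CDH1 would not have been detectable at this spread. The log2 fold change was 0.06, and it was -0.28 without OE replicate 2 and 0.28 without OE replicate 3. Among 6147 genes whose average log2 CPM was 5 or more, the coefficient of variation of CDH1 in OE was 38.3%, a value reached by 3.87% of these genes (median 11.6%). In controls it was 1.85%, against a median of 6.48%.

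CDH3 (P-cadherin; chr16:68636189-68722616, plus strand), a cadherin of basal epithelial cells, lies 14608 bp before CDH1 on the same strand. It measured 442, 479 and 446 CPM in controls and 386, 354 and 331 CPM in OE, every OE library being below every control. The fold was 0.783 (95% interval 0.669 to 0.917, log2 fold change -0.35, SE 0.10), which did not pass the threshold (adjusted p = 0.134, unadjusted p = 0.00724). The adjusted p lay between 0.0512 (DESeq2) and 0.383 over 13 other settings. An antisense transcript overlaps CDH3 exons but had only 48 to 80 counts per library, against 11571 to 18918 for CDH3.

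Per transcript length, as FPKM (fragments scaled to transcript length and sequencing depth) from the deposited log2 values, the 3 cadherins were ordered CDH3, CDH1, CDH2 in both groups by their means. In controls these were 62.2 ± 3.06, 32.1 ± 0.752 and 1.14 ± 0.161 FPKM, and in OE 47.4 ± 4.93, 32.7 ± 13.4 and 2.52 ± 0.463 FPKM (SD, n = 3). In OE replicate 2 alone, CDH3 and CDH1 were about level (ratio 1.02, against 1.74 and 2.01 in the other OE libraries and 1.89 to 2.00 in controls). CDH2 made up 1.38%, 1.17% and 1.04% of the summed FPKM of the 3 cadherins in control replicates 1 to 3, and 2.84%, 3.09% and 3.28% in OE replicates 1 to 3. The groups did not overlap in this share. The ratio of CDH1 to CDH2 was 24.8, 28.1 and 32.5 in controls and 12.5, 15.6 and 9.80 in OE, again without overlap.

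**Figure D3:**
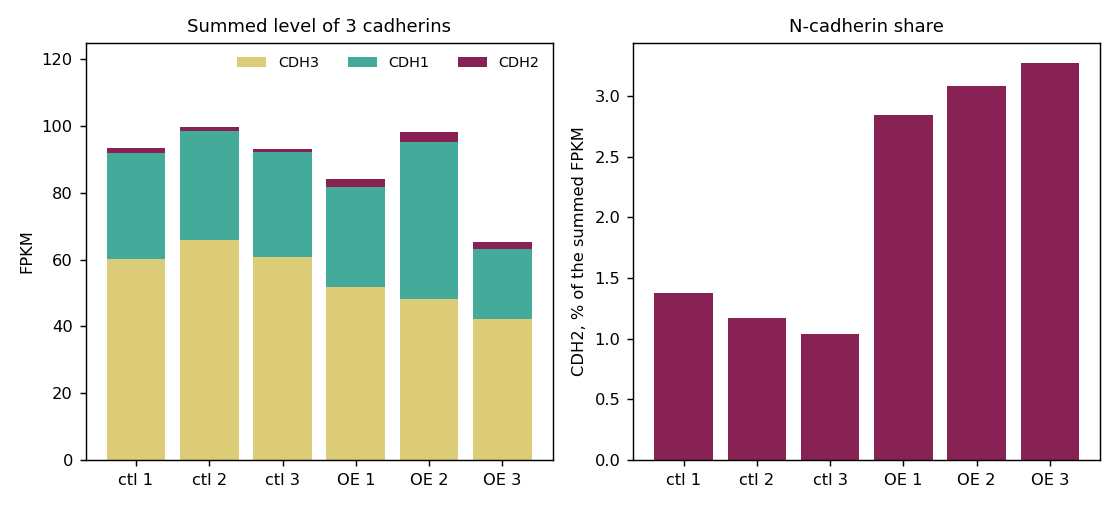
Left, stacked FPKM (y axis) of 3 cadherins in each library (x axis); right, CDH2 as a percentage of that sum. The CDH2 share is 1.04% to 1.38% in controls and 2.84% to 3.28% in OE, and the sum is lowest in OE replicate 3 at 65.2 FPKM.

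**Figure D4:**
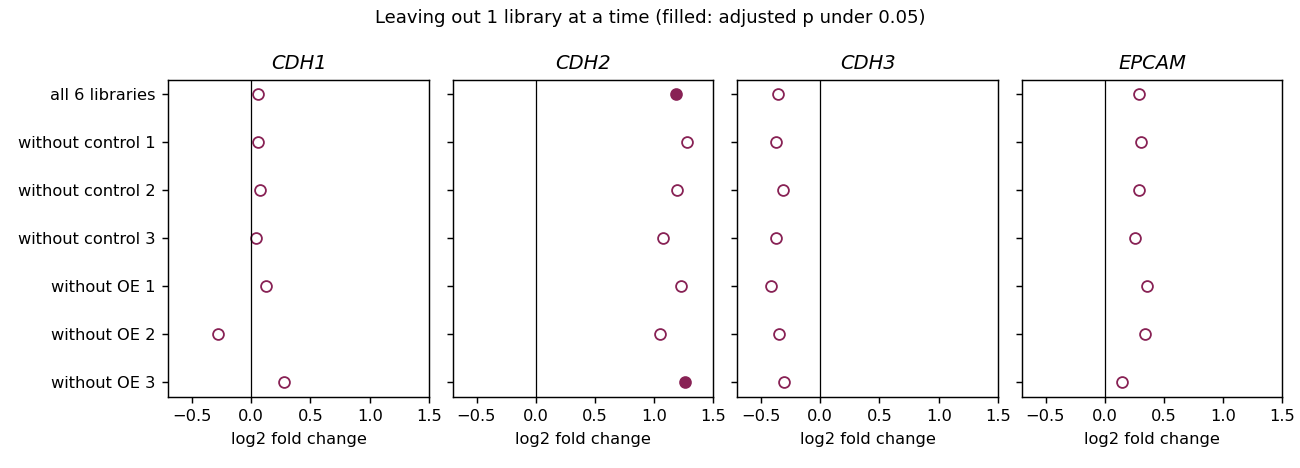
Log2 fold change (x axis) of CDH1, CDH2, CDH3 and EPCAM with all 6 libraries and with each left out (y axis); filled points have an adjusted p under 0.05. CDH2 stays between 1.05 and 1.28 but is filled only with all libraries and without OE replicate 3, and CDH1 is at -0.28 without OE replicate 2.

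EPCAM (chr2:47345158-47387601, plus strand), a homophilic adhesion molecule of epithelia and carcinomas, measured 172, 168 and 162 CPM in controls and 184, 187 and 241 CPM in OE. All OE libraries were above all controls, with OE replicate 3 the highest. The means were 167 ± 5.14 and 204.0 ± 32.0 CPM (SD, n = 3 each; fold 1.22, adjusted p = 0.290). Without OE replicate 3 the log2 fold change was 0.15, against 0.29 with it.

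VIM (chr10:17228259-17237593, plus strand), the filament protein used most often to mark mesenchymal cells, was close to the limit of detection in both groups. It had 3, 20 and 6 counts in control replicates 1 to 3 and 17, 14 and 21 in OE replicates 1 to 3, and the groups overlapped. The exact 95% Poisson interval, which covers counting error only, was 0.619 to 8.77 counts for the lowest library and 13.0 to 32.1 for the highest. At this depth the fold was 1.84 with a 95% interval of 0.629 to 5.37 (adjusted p = 0.538). VIM had the lowest control mean of the 10 genes per length, though its controls overlapped those of ZEB2, and its OE mean was above those of ZEB1 and ZEB2. It was at 0.0334 ± 0.0324 FPKM in controls and 0.0656 ± 0.0186 FPKM in OE (SD, n = 3).

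SNAI2 (Slug; chr8:48917604-48921740, minus strand), which basal keratinocytes also express, was the most abundant of the 5 transcription factors per length, at 15.2 ± 2.00 FPKM in controls and 17.6 ± 1.83 FPKM in OE. Its levels were 55.5, 69.0 and 56.0 CPM in controls and 73.8, 61.9 and 80.6 CPM in OE, with OE replicate 2 inside the control range (fold 1.20, 95% interval 0.962 to 1.49, adjusted p = 0.377). SNAI1 (Snail; chr20:49982999-49988886, plus strand) had 21, 24 and 42 counts in controls and 52, 48 and 24 in OE. OE replicate 3 was within the control range, and the fold of 1.44 had a 95% interval of 0.799 to 2.61 (adjusted p = 0.498).

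TWIST1 (chr7:19020991-19117672, minus strand) measured 4.13, 3.62 and 3.72 CPM in controls and 4.82, 4.50 and 5.97 CPM in OE. The groups did not overlap, and the means were 3.82 ± 0.273 and 5.10 ± 0.774 CPM (SD, n = 3 each). The fold of 1.33 (95% interval 1.004 to 1.77) did not pass the threshold (adjusted p = 0.284). An antisense transcript over TWIST1 exons had 4 to 15 counts per library, against 143 to 209 for TWIST1.

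ZEB1 (chr10:31318495-31529814, plus strand) had 20, 19 and 29 counts in controls and 26, 30 and 25 in OE. ZEB2 (chr2:144364364-144524583, minus strand) had 56, 44 and 41 counts in controls and 60, 57 and 45 in OE. Both overlapped between groups, with folds of 1.23 (95% interval 0.739 to 2.03, adjusted p = 0.672) and 1.17 (0.784 to 1.74, adjusted p = 0.681). ZEB1-AS1, which shares exon sequence with ZEB1 on the other strand, had 49 to 70 counts in controls and 35 to 72 in OE, more than ZEB1 in every library. The library kit does not mark strand, so reads of the pair cannot be told apart where they overlap. Per length, ZEB1 and ZEB2 were at 0.0518 ± 0.0108 and 0.0381 ± 0.00733 FPKM in controls and 0.0617 ± 0.00559 and 0.0432 ± 0.00336 FPKM in OE (SD, n = 3).

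By mean control FPKM the 10 genes were ordered CDH3, EPCAM (55.2 ± 1.79), CDH1, SNAI2, TWIST1 (1.57 ± 0.117), CDH2, SNAI1 (0.337 ± 0.126), ZEB1, ZEB2 and VIM. The 3 control libraries of neighbours in this order did not overlap from CDH3 down to ZEB1, whereas ZEB1 overlapped ZEB2, and ZEB2 overlapped VIM. By the OE means, CDH2 at 2.52 FPKM stood above TWIST1 at 2.03 ± 0.246 FPKM, though their OE libraries overlapped. EPCAM at 65.1 ± 7.91 FPKM stood above CDH3 in OE, without overlap.

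Among epithelial identity genes, which include the miR-200 and miR-205 host transcripts, 0 of 13 passed the threshold in edgeR's test and 4 had an unadjusted p under 0.05, against 17.2% of all tested genes. DESeq2 called 3, all lower, against 7.19% of the 14792 genes to which it gave an adjusted p, and limma-voom called 0, against 1.24%. The log2 fold change was positive for 1 of the 13, against 49.6% of all tested genes, with a median of -0.17. ESRP1, a splicing factor of epithelial cells, measured 147, 155 and 155 CPM in controls and 113, 106 and 83.2 CPM in OE (log2 fold change -0.60, adjusted p = 0.0733). KLF5, a factor of basal epithelium, was at -0.52 (adjusted p = 0.139), and ELF3 at -0.31 (adjusted p = 0.174). ESRP1 and KLF5 were among the 3 that DESeq2 called lower. The other was GRHL1, named for this call, at -0.88 in edgeR's test (adjusted p = 0.241). MIR205HG, the host transcript of miR-205, stood at 309 to 363 CPM in controls and 298 to 368 CPM in OE. MIR200CHG, the host of miR-200c and miR-141, stood at 1.42 to 2.22 CPM in controls and 1.16 to 2.37 CPM in OE. Both overlapped between groups.

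Of 15 adherens junction partners, 2 fell, against 0.596% of all tested genes, 0 rose in edgeR's test, 3 had an unadjusted p under 0.05 (against 17.2%), and the median log2 fold change was -0.20. Both are nectins, adhesion proteins of the immunoglobulin family that join the cadherins at the junction. NECTIN1 measured 250, 261 and 287 CPM in controls and 183, 189 and 160 CPM in OE (log2 fold change -0.59, SE 0.11, adjusted p = 0.0472 by edgeR's quasi-likelihood test). NECTIN4 measured 53.8, 56.6 and 65.6 CPM in controls and 40.5, 38.3 and 38.2 CPM in OE (-0.59, SE 0.11, adjusted p = 0.0487). Neither overlapped between groups, but both calls were lost without any 1 library other than OE replicate 3, with an adjusted p of up to 0.213. DESeq2 called both, limma-voom NECTIN1 but not NECTIN4 (adjusted p = 0.0552), and limma-trend on the deposited log2 values neither (adjusted p = 0.0635 and 0.0554). NECTIN1 also lost its call when counts were scaled by their totals alone (adjusted p = 0.0531). CTNNA1, the alpha-catenin that links cadherins to actin, had a log2 fold change of -0.30 (adjusted p = 0.210). CTNNB1, beta-catenin, overlapped between groups at 130 to 141 CPM in controls and 139 to 176 CPM in OE. CTNND1, the p120 catenin that holds cadherins at the membrane, measured 574, 614 and 298 CPM in controls and 242, 248 and 405 CPM in OE. Control replicate 3 and OE replicate 3 lay apart from their groups for CTNND1, and CTNNB1 and CTNND1 were named after their values were seen.

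Of 16 other cadherins, classical ones and the atypical CDH13, 5 passed the low-count filter and 5 had 0 counts in all libraries. None of the 5 tested passed the threshold in edgeR's test, 1 had an unadjusted p under 0.05, and limma-voom called 0. DESeq2 also called 0, but gave an adjusted p to only 3 of the 5 and none to CDH11. The gene with the unadjusted p under 0.05 was CDH11, the cadherin of osteoblasts and fibroblasts, with 7, 11 and 9 counts in controls and 32, 35 and 12 in OE (log2 fold change 1.54, SE 0.47, adjusted p = 0.157). CDH24 was at 0.23 and CDH5, VE-cadherin, at 0.40 on the log2 scale (adjusted p = 0.328 and 0.468).

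KDM1A (LSD1), the histone demethylase recruited by SNAI1, was the 1 of 10 corepressors of the EMT factors called higher by edgeR's test, against 0.798% of all tested genes. Of the 10, 4 had an unadjusted p under 0.05 in edgeR's test, against 17.2% of all tested genes. DESeq2 called 2, KDM1A and EZH2, against 7.19%, and limma-voom 1, KDM1A, against 1.24%. KDM1A measured 167, 189 and 193 CPM in controls and 282, 288 and 294 CPM in OE, without overlap (log2 fold change 0.65, SE 0.09, adjusted p = 0.0261). The call was lost without any 1 library other than OE replicate 3 (adjusted p up to 0.137). EZH2, the methyltransferase of Polycomb, was at 0.44 (adjusted p = 0.0766, 0.0482 without OE replicate 3, and 0.0109 by DESeq2) and HDAC2, a histone deacetylase, at 0.25 (adjusted p = 0.217). The median of the 10 corepressors was 0.05. Of 10 tested genes that control turnover of SNAI1 and SNAI2 proteins, 0 passed edgeR's test, 0 had an unadjusted p under 0.05 and DESeq2 and limma-voom called 0. Their median was -0.21, with GSK3B, the kinase that marks SNAI1 for degradation, at -0.21 (adjusted p = 0.298), and the ubiquitin ligase subunits FBXO11 at -0.30 and BTRC at -0.29.

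Of 12 other EMT transcription factors, 8 were tested, and edgeR and limma-voom called 0, with 0 at an unadjusted p under 0.05. DESeq2 called 0 of the 6 to which it gave an adjusted p, FOXC2 not among them. TWIST2, PRRX1 and GSC had 0 counts in every library. FOXC1 was at -0.21 (adjusted p = 0.352), FOXC2, with 7 to 28 counts, at 0.75 (adjusted p = 0.582) and ZNF281 at -0.07 (adjusted p = 0.827). FOXC2 turned to -0.15 without OE replicate 3, and ZNF281 to 0.0116 without control replicate 2 and 0.0267 without OE replicate 3.

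Among 18 tested mesenchymal effector genes, edgeR's test called 1 lower, against 0.596% of all tested genes, and 0 higher, with 6 at an unadjusted p under 0.05, against 17.2%. DESeq2 called 1 lower and 1 higher (SPARC), against 7.19% in either direction over all genes given an adjusted p. Limma-voom called 0, against 1.24%, and the median log2 fold change was 0.10. The gene called lower was BGN, the matrix proteoglycan biglycan, with 69, 76 and 96 counts in controls and 31, 37 and 26 in OE (log2 fold change -1.32, SE 0.24, adjusted p = 0.0495). The call was lost without any 1 library (adjusted p 0.0617 to 0.217) and with limma-voom (0.0583). SPARC, a matrix glycoprotein, was at 0.45 in edgeR's test (adjusted p = 0.0625, 0.0301 without OE replicate 3, and 0.00216 by DESeq2) and the membrane protease MMP14 at -0.35 (adjusted p = 0.139). FN1, fibronectin, named after its values were seen, overlapped between groups at 56.5 to 65.3 CPM in controls and 48.0 to 108 CPM in OE. Fibroblast markers were not higher as a sum in OE (40.4 to 43.1 CPM, against 41.1 to 46.1 CPM in controls), with THY1 and DPT at 0 in all libraries. Leukocyte markers summed to 53.3 to 72.9 CPM in controls and 57.4 to 66.3 CPM in OE, with CD3D and MS4A1 at 0. Most of it was CD14 (22.3 to 31.6 CPM in controls, 21.6 to 28.0 CPM in OE) and CD68 (27.8 to 36.6 and 32.3 to 35.6 CPM). LUM, CD14 and CD68 were named after their values were seen. Endothelial markers summed to 7.19 to 10.7 CPM in controls and 9.94 to 13.4 CPM in OE, with KDR at 0. Most of it was CDH5, at 4.31 to 7.82 CPM in controls and 6.23 to 9.93 CPM in OE. Of the tested genes of these 3 lists, edgeR and limma-voom called 0, with 1, ERG, at an unadjusted p under 0.05. DESeq2 called 0 of the 3 fibroblast, 4 leukocyte and 3 endothelial genes to which it gave an adjusted p. The part of other cell types in the CDH2 result was not tested beyond these values.

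Of 20 genes of the partial EMT state of head and neck carcinoma, in which mesenchymal genes are expressed with epithelial ones kept, 0 passed the threshold in edgeR's test and 7 had an unadjusted p under 0.05, against 17.2% of all tested genes. DESeq2 called 5 (3 higher and 2 lower), against 7.19%, limma-voom called 1, against 1.24%, and the median was 0.14. CAV1, caveolin-1, was at 0.53 on the log2 scale (adjusted p = 0.0527) and THBS1, thrombospondin-1, at 0.85 (adjusted p = 0.0586), both in edgeR's test. DESeq2 called both higher, and limma-voom called CAV1. Of the 20, 12 were positive and 8 negative. LAMB3, named after its values were seen, was among the 2 that DESeq2 called lower, at -0.31 in edgeR's test (adjusted p = 0.139). Of 11 tested genes that cleave or partner E-cadherin and EPCAM, 0 passed edgeR's test, 4 had an unadjusted p under 0.05 (against 17.2%), DESeq2 called 2 (against 7.19%) and limma-voom 0. MMP7, a protease that can shed E-cadherin, measured 5.60, 6.48 and 6.79 CPM in controls and 10.0, 10.7 and 17.4 CPM in OE (log2 fold change 1.01, adjusted p = 0.0821). ADAM17, a sheddase, was at -0.54 on the log2 scale (adjusted p = 0.101). The 2 genes that DESeq2 called were MMP7, higher, and ADAM17, lower.

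Of the 14 squamous markers, 0 passed edgeR's test, 7 had an unadjusted p under 0.05 (against 17.2%), DESeq2 called 3, all lower (against 7.19%), and limma-voom 0. The median was -0.25, with KRT17, a stress and basal keratin, at -0.57 (adjusted p = 0.0848) and the desmosomal cadherins DSG3 at -0.64 (adjusted p = 0.105) and DSC3 at -0.50 (adjusted p = 0.121). DESeq2's 3 calls were these genes. Of the 14, 12 were negative and 2 positive. KRT5, the most abundant, was higher without overlap, at 4570 to 5522 CPM in controls and 5907 to 7012 CPM in OE. Its log2 fold change was 0.34 (adjusted p = 0.189 in edgeR's test), and it weighs most in the list's summed CPM given above.

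**Figure D5:**
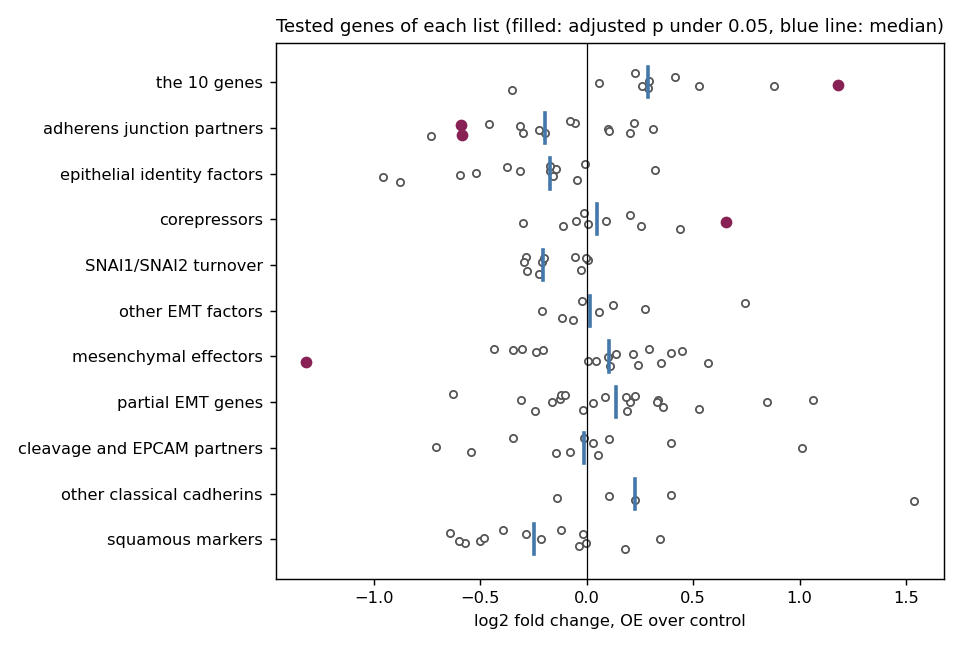
Log2 fold change of OE over control (x axis) for the tested genes of the 10 members and 10 lists (y axis; fibroblast, leukocyte and endothelial markers are not drawn); filled points passed an adjusted p of 0.05, and the blue line is the median of the list. The filled points are CDH2, NECTIN1, NECTIN4, KDM1A and BGN, and the medians drawn lie between -0.25 and 0.29.

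The genes whose log2 CPM followed CDH2 most closely over the 6 libraries were LMNB1, lamin B1 of the nuclear lamina (Pearson r = 0.997), NT5E, the ectonucleotidase CD73 (0.995), and LMNB2, lamin B2 (0.995). Of 12476 genes compared, 143 had an r of 0.95 or more with CDH2. Those closest to CDH3 were XPOT, the tRNA exporter (0.997), CTBS, chitobiase (0.996), and IARS, an isoleucyl-tRNA synthetase (0.994), and 187 genes reached 0.95. The 6 points share their 2 groups and their libraries, so these values are descriptions. LMNB1 rose from 78.2 ± 4.79 to 133 ± 14.7 CPM (log2 fold change 0.77, adjusted p = 0.0269) and NT5E from 36.2 ± 1.79 to 58.3 ± 3.75 CPM (0.69, adjusted p = 0.0256; SD, n = 3 each). XPOT fell from 340 ± 25.5 to 222 ± 24.2 CPM (log2 fold change -0.61, adjusted p = 0.0495), while CTBS, IARS and LMNB2 did not pass the threshold.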

How the data were processed

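Raw counts per gene and log2 values were deposited by the authors for the same 6 libraries. From their relation to the counts, the deposited log2 values are log2(FPKM + 1), and FPKM given here were back-calculated from them. Per the labels' protocols, ribosomal RNA was depleted and libraries were made with the TruSeq RNA v2 kit. Trim Galore 0.4.4 and hg38 are named, per the submitters' processing notes, and the sources used here give no aligner, counter or annotation. By the labels, the reverse reads of control replicate 1 were missing, and it was submitted as single-end. How reads that map to several genes were counted is unknown.

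Counts were tested with edgeR 4.0.16 in R 4.3.3 (filterByExpr with minimum count 10, TMM scaling, robust quasi-likelihood test, no covariate) and adjusted by Benjamini-Hochberg over 18786 genes, at a threshold of 0.05. The common biological coefficient of variation was 0.226. CPM are TMM-scaled (factors 0.951 for OE replicate 3 and 0.999 to 1.02 for the others). SEs of log2 fold changes were taken from the F statistic (the size of the change over the root of F). Alternatives were DESeq2 1.42.0, limma 3.58.1 (voom on counts, trend on the deposited log2 values), other scalings, no filter, a replicate block and leaving out each library. Scripts were tested on simulated data.

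The 10 genes and all lists were chosen with earlier results of these data known, so counts over them are descriptions. Named were the 10 genes, CNTNAP2 and the 3 genes of each list with the smallest p. The rule also named, among the genes compared, the 3 most correlated with CDH2 and with CDH3, the members with the smallest p. Of the genes this rule names, 2 are not reported here. Correlations and distances used log2(CPM + 0.5). Lists were adherens junction partners, other classical cadherins, epithelial identity, other EMT factors, corepressors, SNAI turnover, mesenchymal effectors, partial EMT, cleavage and partners, and squamous, fibroblast, leukocyte and endothelial markers. Gene positions come from GENCODE 29 (GRCh38), which held 58457 of the 60564 identifiers.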

Additional observations from a re-analysis of the deposited data

How the results depend on the processing

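CDH2 was positive in all 13 alternatives (log2 fold change 0.71 to 1.28) and called in 6. On the deposited log2 values limma-trend gave 0.71 (adjusted p = 0.0574) and called 0 members higher. Leaving out each library in turn gave 1.05 to 1.28 for CDH2, 0 to 1 members higher, 0 to 11 genes called over the lists (4 with all libraries) and 13 to 560 genes called over the transcriptome (262 with all). Over the lists, 9 genes were called with no low-count filter, 19 by DESeq2 and 1 by limma-trend. Over the transcriptome, DESeq2 called 1064 genes and limma-trend 165. CDH1 changed sign to -0.0098 with limma-voom and -0.0490 with limma-trend. When each library was left out in turn, the sign also changed for CDH1 (-0.28 to 0.28, negative without OE replicate 2), FOXC2 (-0.15 to 1.12, negative without OE replicate 3), ZNF281 (-0.14 to 0.0267, positive without control replicate 2 or OE replicate 3) and VWF, an endothelial marker (-0.29 to 0.0628, positive without control replicate 3). The other 8 members kept their sign in every alternative that gave them a value, and none of them was called in any. The cause of these differences was not tested. Low counts limit VIM, SNAI1, ZEB1 and ZEB2.

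No pairing by replicate number was visible. Deviations of same-numbered libraries correlated at -0.12, 0.04 and -0.04 over genes, and no library correlated best with its own number. With 3 libraries per group, these correlations cannot exclude a pairing. With the replicate block, 17 genes were called over the transcriptome, 0 over the lists and 0 members higher. CDH2 was at 1.18 (adjusted p = 0.0716) and CDH1 at -0.0111 under the block.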
